A study of Sus scrofa with 6 samples.

Results

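Integrins are paired receptors, each an alpha and a beta chain, through which cells hold the matrix around them. On the inner side talins and kindlins bind the beta tail and switch the receptor on, and a plaque of kinases, scaffolds and tensins ties it to actin. In cartilage such receptors fix cells to collagen, fibronectin and laminin and carry load from the matrix to the cell. A list of 40 genes of this system was looked up among 19670 gene models: integrin subunits, adhesion adaptors, other matrix receptors and a few matrix ligands. Of these, 33 were found by the symbol of their identifier and 3 by the protein name in the deposited annotation (ITGB5, PTK2 and SDC4). PTK2 has 2 such models, so the 36 genes stand on 37 models. ITGA7, ITGA10, ITGB8 and PXN were found by neither route and are not analysed here.

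RNA was measured in primary auricular (external ear) cartilage cells of a Duroc x (Landrace x Large White) pig of 4 months with wild-type PPARD. Treated cells had 24 h with GW0742, a compound that activates the nuclear receptor PPARD, and the control cells had 24 h with DMSO, its solvent. There were 3 libraries in each group, all from that animal, and the labels do not name separate cultures, so p-values measure only how far these libraries vary, and that variation may be technical. The series title links PPARD to the growth of ear cartilage, and the comparison here asks which adhesion genes differ after PPARD is engaged.

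Libraries held between 13133894 and 16913742 estimated reads. Chi-square values per degree of freedom ranged from 4.1 to 14.9 between libraries of a group and from 9.5 to 16.7 between groups, so every pair differed by more than sampling noise. The treatment check was high in every treated library: ANGPTL4, a direct PPAR target, stood at 200, 176 and 185 CPM (reads scaled to library size) with GW0742, against 16, 26.5 and 21.5 CPM with DMSO. PPARD itself stood at 56.5, 52.9 and 57.7 CPM with GW0742, against 51.9, 47.5 and 55.1 CPM with DMSO. All 12 listed chondrocyte markers were found, with a summed level of 1651 to 1707 RPKM (reads scaled to length and library size) with GW0742 and 1731 to 1734 RPKM with DMSO. Most of that sum was FMOD, fibromodulin, with means of 1183 RPKM (GW0742) and 1181 RPKM (DMSO). In the same order COL2A1 averaged 108 and 114 RPKM, SOX9 8.98 and 9.89 RPKM, and MATN1 0.0699 and 0.0675 RPKM. In edgeR 1 of the 11 tested markers, ACAN, the core protein of aggrecan, fell (log2 fold change -0.50, adjusted p = 0.0185), beside 0.0778% of all models. Its call was lost without GW0742 replicate 1, DMSO replicate 1 or DMSO replicate 3 (adjusted p up to 0.105) and with the replicate number as a block (0.099). Of the 11, 8 had log2 values below 0 and 3 above (49.7% of all models were above 0). The groups were apart with GW0742 lower in 4 (12.1% of all models) and with GW0742 higher in 0 (11.4%). The 7 fibroblast markers found summed to 14318 to 15156 RPKM with GW0742 and 15156 to 15610 RPKM with DMSO.

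None of the 36 models tested passed an adjusted p of 0.05 in either direction in edgeR's quasi-likelihood test. Over all 14146 models tested, 0.184% were called higher and 0.0778% lower. Of the 37 models 36 passed the filter on low counts, and ITGB6 did not. Without adjustment, 6 of them had p under 0.05 and a higher GW0742 level (7.93% of all models did), and 2 a lower one (8.91% of all models did). In 5 models every GW0742 library was above every DMSO library (ITGB4, ITGA6, SDC1, TNC and PARVA), and in 3 every GW0742 library was below (FERMT2, ILK and ITGAV). Over all models the groups did not overlap in 11.4% with GW0742 higher and in 12.1% with it lower, so the shares among these genes are near the background. Their log2 fold changes ran from -0.21 to 1.10 with a median of 0.05, beside a median of 0.00 over all models, and 23 of 36 were above 0 (49.7% of all models were). DESeq2 on the same counts called ITGB4 and TNC higher and FERMT2 lower, where 1.26% of all models were called higher and 1.43% lower. These DESeq2 shares, here and below, are over 15718 models with a DESeq2 adjusted p, some of them too low for the edgeR filter. Among the 14145 of them also tested in edgeR, DESeq2 called 192 higher and 219 lower. For 27 of the 36 models the 95% interval of the log2 fold change lay within 0.5 on either side of 0.

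**Figure D1:**
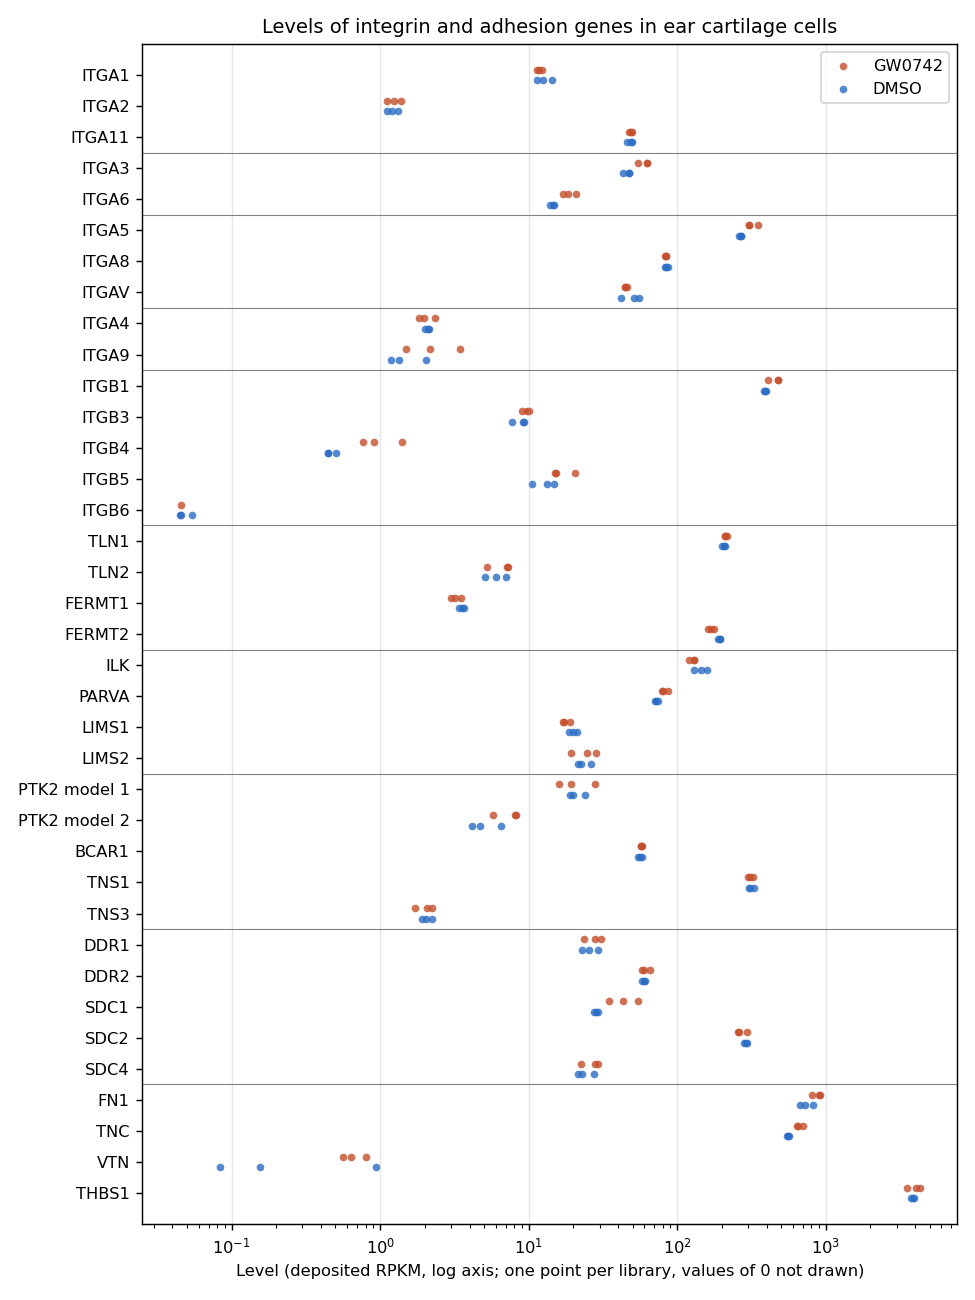
Levels of 37 models of 36 integrin and adhesion genes as deposited RPKM on a log axis, with 1 point per library, GW0742 above DMSO in each row, and lines between roles. THBS1 stands highest, with means of 3984 (GW0742) and 3843 (DMSO), ITGB6 lowest (values of 0 are not drawn), and the libraries of a gene lie close together beside the spread between genes.

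Levels are compared between genes as deposited RPKM, which is scaled by length. The 10 most abundant models, each over 100 RPKM in both groups, were THBS1, FN1, TNC, ITGB1, ITGA5, TNS1, SDC2, TLN1, FERMT2 and ILK. They cover 3 matrix ligands, a main receptor pair, a syndecan and 4 proteins of the plaque. The median level was 27.4 RPKM with GW0742 and 25.9 RPKM with DMSO over the 37 models, beside 7.68 and 7.53 RPKM over all tested models. THBS1 led at 3984 ± 404 RPKM with GW0742 and 3843 ± 84.5 RPKM with DMSO (SD, n = 3 each). FN1, TNC and ITGB1 followed in that order, and the libraries of these neighbours did not overlap in either group. ITGA5 stood above TNS1 and SDC2 on average with GW0742 and below them with DMSO, and the GW0742 libraries of ITGA5 and TNS1 overlapped. Of the 36 neighbouring pairs in the order, 19 were parted beyond the range of their libraries with GW0742 and 21 with DMSO.

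Among beta subunits ITGB1, the partner of most alpha chains, dominated. It took 94.9%, 93.7% and 94.2% of the summed RPKM of 5 beta chains with GW0742, and 95.5%, 94.1% and 94.4% with DMSO. Among alpha chains ITGA5, which pairs with ITGB1 as the classical fibronectin receptor, led. It took 53.9 ± 1.92% of the summed RPKM of 10 alpha chains with GW0742 and 50.6 ± 0.629% with DMSO (SD, n = 3 each). ITGA8, which also binds RGD motifs, took 14.1 ± 0.549% with GW0742 and 16.0 ± 0.328% with DMSO. The level of ITGA8 itself averaged 83.2 RPKM with GW0742 and 84.4 RPKM with DMSO, and its groups overlapped. The sum of the alpha chains averaged 591 RPKM with GW0742 and 526 RPKM with DMSO. The shares rest on RPKM, whose values for genes of several transcripts are taken up again further on.

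The groups overlapped in all 3 collagen-binding alpha chains found. ITGA11, a receptor of fibrillar collagen on mesenchymal cells, was the most abundant of them, at 162, 153 and 164 CPM with GW0742, against 151, 167 and 163 CPM with DMSO. Its log2 fold change of -0.01 had a 95% interval from -0.15 to 0.14. ITGA1, a receptor that prefers network and other collagens, stood at 23.9, 24.4 and 22.7 CPM with GW0742, against 20.2, 24.3 and 23.1 CPM with DMSO. ITGA2, another collagen receptor, was low, with 39 to 57 reads per GW0742 library and 37 to 44 per DMSO library.

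ITGB4 and ITGA6, which pair as a laminin receptor, had the lowest unadjusted p of the 36 models (0.00159 and 0.00378). ITGB4 has a long inner tail that links to intermediate filaments in hemidesmosomes. ITGB4 stood at 5.74, 8.23 and 4.64 CPM with GW0742, against 2.73, 3.23 and 2.76 CPM with DMSO. Every treated library was above every control library, with replicate 2 of GW0742 the highest. Its log2 fold change was 1.10 ± 0.24 (SE, edgeR adjusted p = 0.0978), a fold of 2.14 on 413 reads in all, and DESeq2 called it (adjusted p = 0.0265). ITGA6 stood at 25.1, 29.7 and 26.7 CPM with GW0742, against 20.6, 22.2 and 20.3 CPM with DMSO. The groups did not overlap, and the log2 fold change was 0.37 ± 0.09 (SE, edgeR adjusted p = 0.125). Another model annotated as ITGA6 protein, with 450 reads in all beside 2194, had a log2 fold change of -0.09 ± 0.20, and both summed gave 0.29 ± 0.09 (edgeR adjusted p = 0.161). ITGA3, a further laminin receptor chain, stood at 133, 124 and 139 CPM with GW0742, against 114, 130 and 123 CPM with DMSO, and its groups overlapped.

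Endothelium also carries ITGA6, and its markers were on average higher with GW0742 too. Of 11 listed markers 8 were found, none was at 0, and their summed level was 115 to 144 RPKM with GW0742 and 76.9 to 110 RPKM with DMSO. Of the 7 tested, 6 had log2 values above 0 (49.7% of all models did) and 5 had groups apart with GW0742 higher (11.4% of all models did). None passed in edgeR, and DESeq2 called 2 higher, beside 1.26% of all models. Their median log2 fold change was 1.16. PECAM1, a junction protein of endothelium, stood at 28.3, 35.0 and 15.6 CPM with GW0742, against 11.9, 12.2 and 11.1 CPM with DMSO. CLDN5, a tight junction protein and the most abundant of these markers per length, stood at 65.9, 66.3 and 62.4 CPM with GW0742, against 36.0, 58.4 and 50.6 CPM with DMSO. ERG, an endothelial transcription factor, stood at 50.3, 52.1 and 46.2 CPM with GW0742, against 51.8, 54.8 and 48.0 CPM with DMSO, and its groups overlapped. The part of endothelial cells in the values of ITGB4 and ITGA6 was not tested, and in such bulk samples more cells of a type and more RNA per cell cannot be told apart. Of 7 listed keratinocyte markers 6 were found, and their summed level was 1.72 to 2.54 RPKM with GW0742 and 1.69 to 2.26 RPKM with DMSO. ITGB4 itself averaged 1.03 RPKM with GW0742 and 0.467 RPKM with DMSO. The part of any keratinocytes in its values was not tested.

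**Figure D2:**
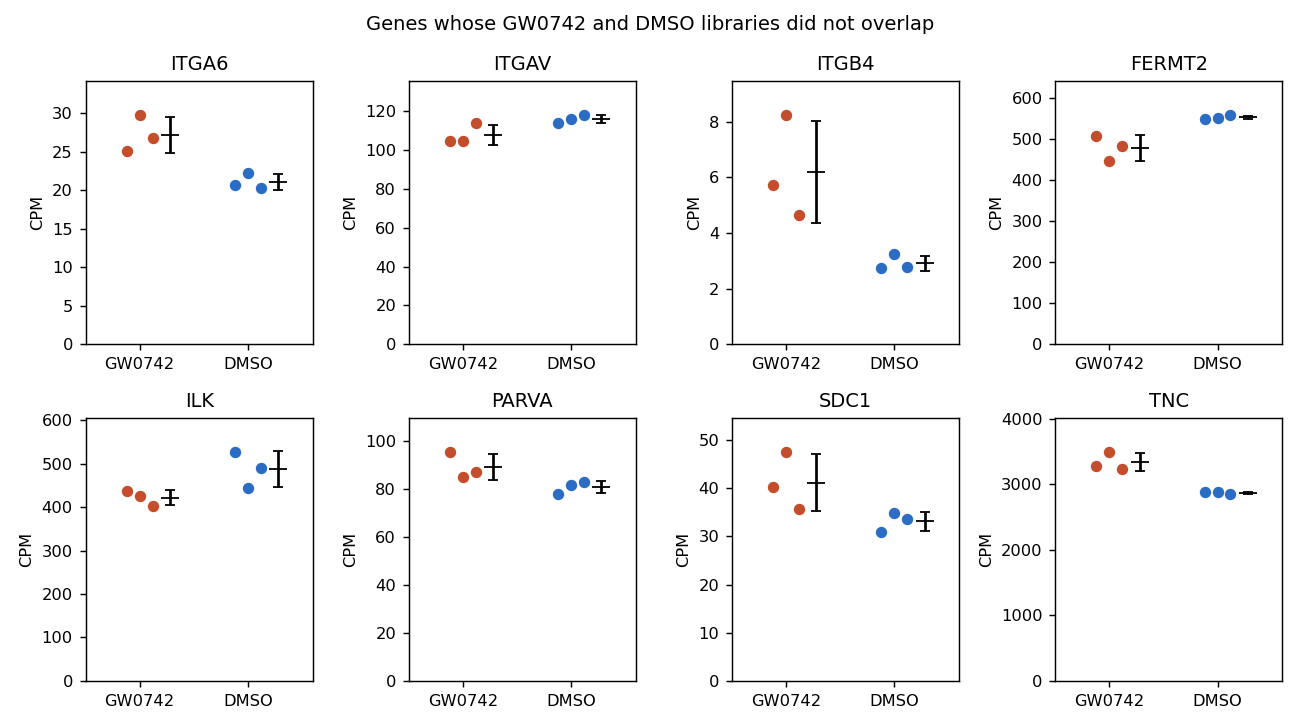
CPM in each library (points) of the 8 genes whose GW0742 libraries, at the left, did not overlap the DMSO libraries, at the right, with the mean and SD as bars. ITGB4 has the widest gap relative to its level, with 4.64 to 8.23 CPM with GW0742 and 2.73 to 3.23 CPM with DMSO, while ITGAV, FERMT2, ILK and PARVA lie close together.

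The RGD-binding alpha chains, which recognise fibronectin, vitronectin and related ligands, had small differences. ITGAV, partner of several beta chains, stood at 105, 105 and 114 CPM with GW0742, against 114, 116 and 118 CPM with DMSO. The highest treated and the lowest control library nearly touched, and the log2 fold change was -0.11 ± 0.06 (SE, edgeR adjusted p = 0.409). ITGA8 stood at 558, 538 and 549 CPM with GW0742, against 550, 586 and 563 CPM with DMSO. ITGA5 stood at 1422, 1229 and 1267 CPM with GW0742, against 1216, 1244 and 1256 CPM with DMSO. Its groups overlapped, with GW0742 replicate 1 the highest and GW0742 replicate 2 among the controls.

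Among the other beta chains, ITGB3, which joins ITGAV as a vitronectin receptor, stood at 48.9, 48.1 and 47.8 CPM with GW0742, against 37.5, 53.4 and 38.9 CPM with DMSO. DMSO replicate 2 exceeded every treated library while the other controls were lower. ITGB5, a further partner of ITGAV, stood at 14.1, 18.8 and 14.3 CPM with GW0742, against 9.91, 14.3 and 12.5 CPM with DMSO (log2 0.37 ± 0.17, edgeR adjusted p = 0.315). ITGB6, an epithelial partner of ITGAV that activates latent TGF-beta, had 0, 0 and 2 reads with GW0742, against 2, 2 and 2 reads with DMSO. Both groups are under the floor of 3 reads per library, so no fold is given. Another model annotated as ITGB6 protein had 3, 4 and 6 reads with GW0742, against 4, 3 and 4 reads with DMSO, and was too low to be tested. ITGA4, which binds VCAM1 and fibronectin, stood at 13.3 to 16.7 CPM with GW0742 and 14.9 to 15.6 CPM with DMSO. ITGA9, a receptor of tenascin, is spread over 6 models, which together held 7.73, 9.85 and 6.08 CPM with GW0742, against 6.71, 6.08 and 6.12 CPM with DMSO.

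Of the proteins that switch integrins on, TLN1, the main talin, had overlapping groups: it stood at 1901, 1793 and 1852 CPM with GW0742, against 1811, 1779 and 1857 CPM with DMSO. Its log2 interval was narrow, from -0.10 to 0.15. FERMT2, the kindlin of mesenchymal cells, stood at 506, 445 and 482 CPM with GW0742, against 549, 550 and 557 CPM with DMSO. All treated libraries were lower, with a log2 fold change of -0.21 ± 0.06 (SE, edgeR adjusted p = 0.162, DESeq2 adjusted p = 0.0433). A second model carries the same protein name at 171 CPM with GW0742 and 172 CPM with DMSO on average, and its log2 fold change was -0.01 ± 0.09. Both FERMT2 models summed to 686, 594 and 666 CPM with GW0742, against 709, 730 and 734 CPM with DMSO (log2 -0.16 ± 0.07, edgeR adjusted p = 0.264). FERMT1, the kindlin of epithelium, stood at 18.8 to 22.0 CPM with GW0742 and 21.9 to 22.9 CPM with DMSO. TLN2, the second talin, is split over 4 models, and their sum averaged 33.0 ± 3.13 CPM with GW0742 and 32.9 ± 3.72 CPM with DMSO (SD, n = 3 each).

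ILK, PINCH and parvin form a complex that joins integrin tails to actin, and its members had log2 fold changes of both signs. ILK, the pseudokinase at its core, stood at 437, 425 and 403 CPM with GW0742, against 527, 444 and 491 CPM with DMSO. All treated libraries were below the controls, with a log2 fold change of -0.21 ± 0.07 (SE, edgeR adjusted p = 0.213). PARVA, the parvin that contacts actin, stood at 95.2, 85.0 and 87.0 CPM with GW0742, against 77.8, 81.3 and 82.6 CPM with DMSO, so all treated libraries were above the controls (log2 0.14 ± 0.07, edgeR adjusted p = 0.325). LIMS1, a PINCH adaptor, stood at 53.1, 46.8 and 47.4 CPM with GW0742, against 54.8, 60.8 and 52.5 CPM with DMSO. LIMS2, the other PINCH, stood at 33.9 to 50.5 CPM with GW0742 and 37.6 to 46.8 CPM with DMSO.

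Among the kinase, the scaffold and the tensins the groups overlapped in all 5 models. BCAR1, a scaffold phosphorylated when cells are stretched, stood at 166, 159 and 161 CPM with GW0742, against 158, 158 and 165 CPM with DMSO. TNS1, which anchors actin at mature adhesions, stood at 318, 318 and 329 CPM with GW0742, against 311, 354 and 324 CPM with DMSO. A further model with the TNS1 protein name averaged 79.3 CPM with GW0742 and 82.2 CPM with DMSO (log2 -0.05 ± 0.07). Both TNS1 models summed averaged 401 CPM with GW0742 and 412 CPM with DMSO. PTK2, the focal adhesion kinase, has 2 models, summing to 21.6, 34.0 and 26.3 CPM with GW0742, against 23.0, 28.5 and 25.8 CPM with DMSO. The PTK2 model with 479 reads in all had a log2 fold change of 0.51 ± 0.21 (SE, edgeR adjusted p = 0.269) and the model with 1949 reads -0.01 ± 0.19. How the counting shared reads between models of a protein is not known, so values of a lone model are uncertain where several exist. TNS3 was low, at 9.42 to 11.9 CPM with GW0742 and 10.4 to 12.6 CPM with DMSO.

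**Figure D3:**
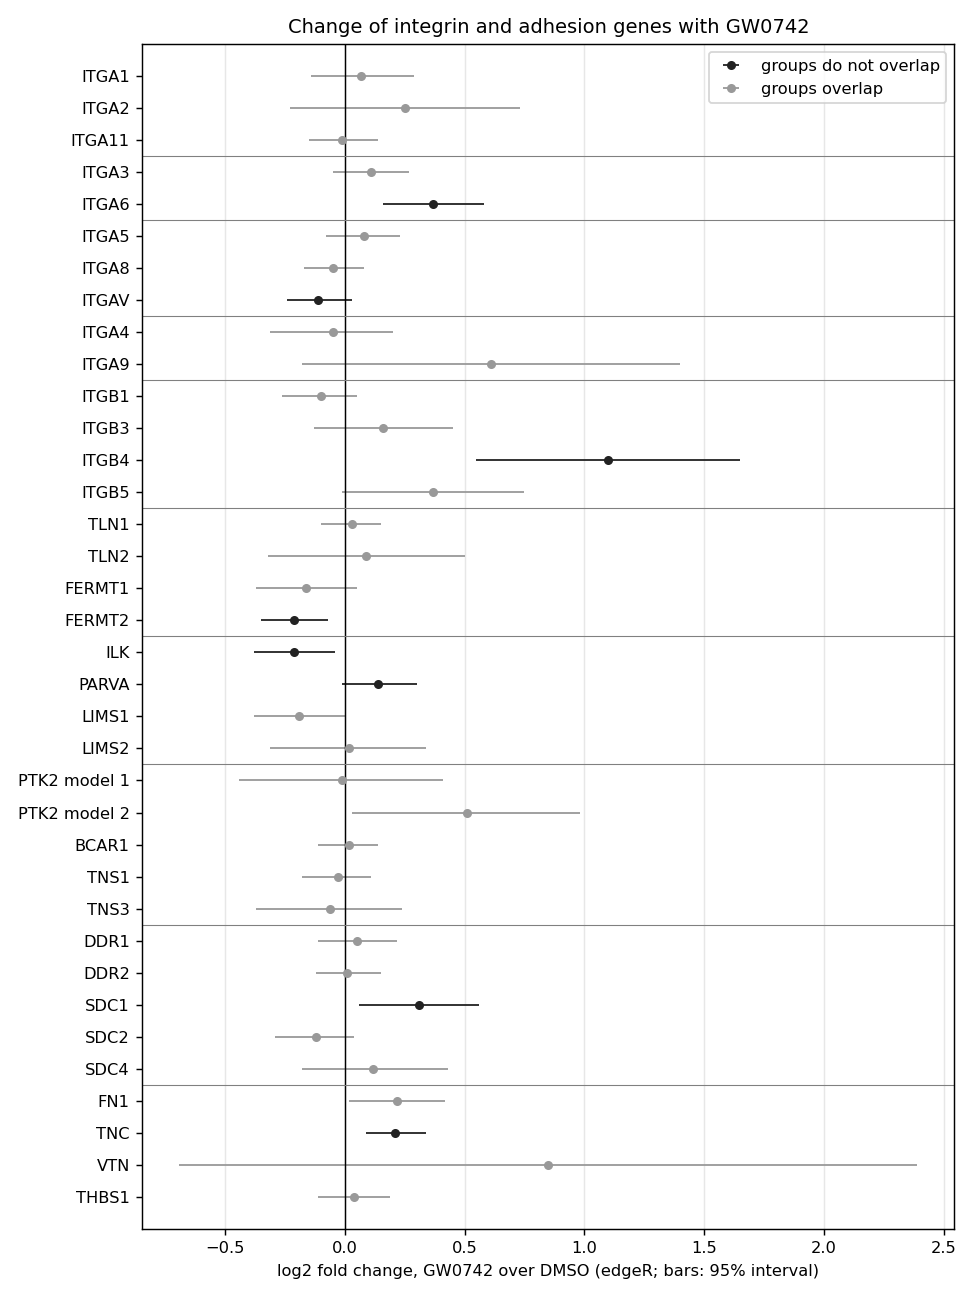
Log2 fold change of GW0742 over DMSO for the 36 tested models (points) with the 95% interval from edgeR (bars), dark where the groups did not overlap, and lines between roles. Most points lie within 0.5 of 0, ITGB4 stands at 1.10, and the wide bars belong to low genes such as VTN and ITGA9.

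Among matrix receptors that are not integrins, SDC1, a heparan sulfate proteoglycan that assists integrins, stood at 40.3, 47.5 and 35.7 CPM with GW0742, against 31.0, 34.8 and 33.7 CPM with DMSO. All treated libraries were higher, GW0742 replicate 3 by a small margin, with a log2 fold change of 0.31 ± 0.11 (SE, edgeR adjusted p = 0.211). SDC2, the abundant syndecan here, stood at 588, 495 and 522 CPM with GW0742, against 577, 605 and 567 CPM with DMSO. SDC4, the syndecan of focal adhesions, stood at 19.6 to 25.4 CPM with GW0742 and 18.6 to 24.5 CPM with DMSO. The collagen receptor kinases DDR2 and DDR1 overlapped between the groups. DDR2 stood at 177, 194 and 182 CPM with GW0742, against 180, 189 and 178 CPM with DMSO, and DDR1 averaged 71.5 ± 2.19 CPM with GW0742 and 68.9 ± 5.25 CPM with DMSO (SD, n = 3 each).

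Of the matrix ligands, TNC, an adhesion-modulating hexameric glycoprotein, stood at 3275, 3489 and 3232 CPM with GW0742, against 2881, 2878 and 2854 CPM with DMSO. The controls lay within a narrow band and all treated libraries were above it, with a log2 fold change of 0.21 ± 0.06 (SE, edgeR adjusted p = 0.127, DESeq2 adjusted p = 0.00458). TNC has 2 further models with its protein name. They had log2 fold changes of 0.36 ± 0.06 (edgeR adjusted p = 0.0651) and 0.06 ± 0.07, and all 3 models summed gave 0.22 ± 0.06 (edgeR adjusted p = 0.118). FN1, fibronectin, stood at 7183, 7843 and 7952 CPM with GW0742, against 5914, 7369 and 6470 CPM with DMSO. DMSO replicate 2 lay above GW0742 replicate 1, and the log2 fold change was 0.22 ± 0.09 (SE, edgeR adjusted p = 0.259). THBS1, a matricellular protein that binds integrins and CD47, stood at 11975, 12098 and 12978 CPM with GW0742, against 11335, 12548 and 12173 CPM with DMSO. VTN, vitronectin, had 12, 14 and 17 reads with GW0742, against 2, 18 and 4 reads with DMSO, and the groups overlapped. The protein has a second model, and the sum of both stood at 1.53, 2.06 and 2.09 CPM with GW0742, against 2.14, 2.03 and 2.10 CPM with DMSO.

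Reads and RPKM did not give the same picture for several integrins. In deposited RPKM every GW0742 library was above every DMSO library in 10 of the 36 models and below in 1, where all models gave 13.7% and 9.64%. ITGB1 stood at 480, 475 and 409 RPKM with GW0742, against 396, 391 and 386 RPKM with DMSO. In reads ITGB1 stood at 1116, 1029 and 1075 CPM with GW0742, against 1122, 1242 and 1098 CPM with DMSO. The groups were thus apart in RPKM with GW0742 higher, and overlapped in CPM with the GW0742 mean lower. Its log2 fold change was -0.10 ± 0.07 in reads (SE, edgeR adjusted p = 0.473), and limma on log2(RPKM + 1) gave 0.21 (adjusted p = 0.251). For ITGA5 these log2 values were 0.08 ± 0.07 in reads and 0.25 in RPKM, for ITGA3 0.11 ± 0.07 and 0.37, and for SDC1 0.31 ± 0.11 and 0.59, and the RPKM groups were apart in all 3.

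ITGB1, ITGA5, ITGA3 and SDC1 each have several annotated transcripts. Summing the deposited library RPKM by gene gave the deposited gene RPKM (0 values differed), so the gene value is a sum over transcript entries. It is thus not proportional to the reads of the gene over a fixed length. It depends on how reads were shared between transcripts. The library values list reads per transcript, but the method that shared them is not given in the sources used here. The RPKM levels, shares and differences of genes with several transcripts carry that doubt. Reads divided by RPKM, scaled so that models of 1 transcript give their listed length, are called implied length here. It is a ratio of the deposited values and not a measured transcript. For SDC1 the mean transcript length weighted by reads and averaged over libraries, 3079 bases, exceeds all its implied lengths. Short transcripts add more RPKM per read and pull implied length below that mean, so this gap follows from how both were made. This implied length of ITGB1 was 2151, 2073 and 2435 bases with GW0742, against 2642, 2878 and 2615 bases with DMSO. All treated libraries implied a shorter length, and GW0742 replicate 3 was nearest to the controls. For ITGA5 it was 3778, 3863 and 3866 bases with GW0742, against 4348, 4183 and 4295 bases with DMSO. The log2 ratio was -0.16 ± 0.02 (SE, limma adjusted p = 0.132). For ITGA3 the lengths were 1970, 2198 and 2050 bases with GW0742, against 2459, 2485 and 2393 bases with DMSO. For SDC1 they were 867, 841 and 952 bases with GW0742, against 1015, 1085 and 1127 bases with DMSO. All treated libraries again implied a shorter length for both.

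Of the 16 adhesion models with several transcripts and at least 10 reads in every library, 5 had groups apart with GW0742 shorter (ITGB1, ITGA5, ITGA3, SDC1 and, by a small margin, TNC). Over all 1635 such models the share was 11.0%. A further 2 were apart with GW0742 longer (ITGA2 and, by a few bases, ITGA11), where all models gave 7.52%. None of the 16, and none of the 1635, passed an adjusted p of 0.05 in limma, 0% in each direction. At an unadjusted p under 0.05, 102 of the 1635 were shorter and 61 longer. The measure was chosen after the values were seen, and it does not say which transcript gained or lost reads. The deposited values of single transcripts were not compared here.

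**Figure D4:**
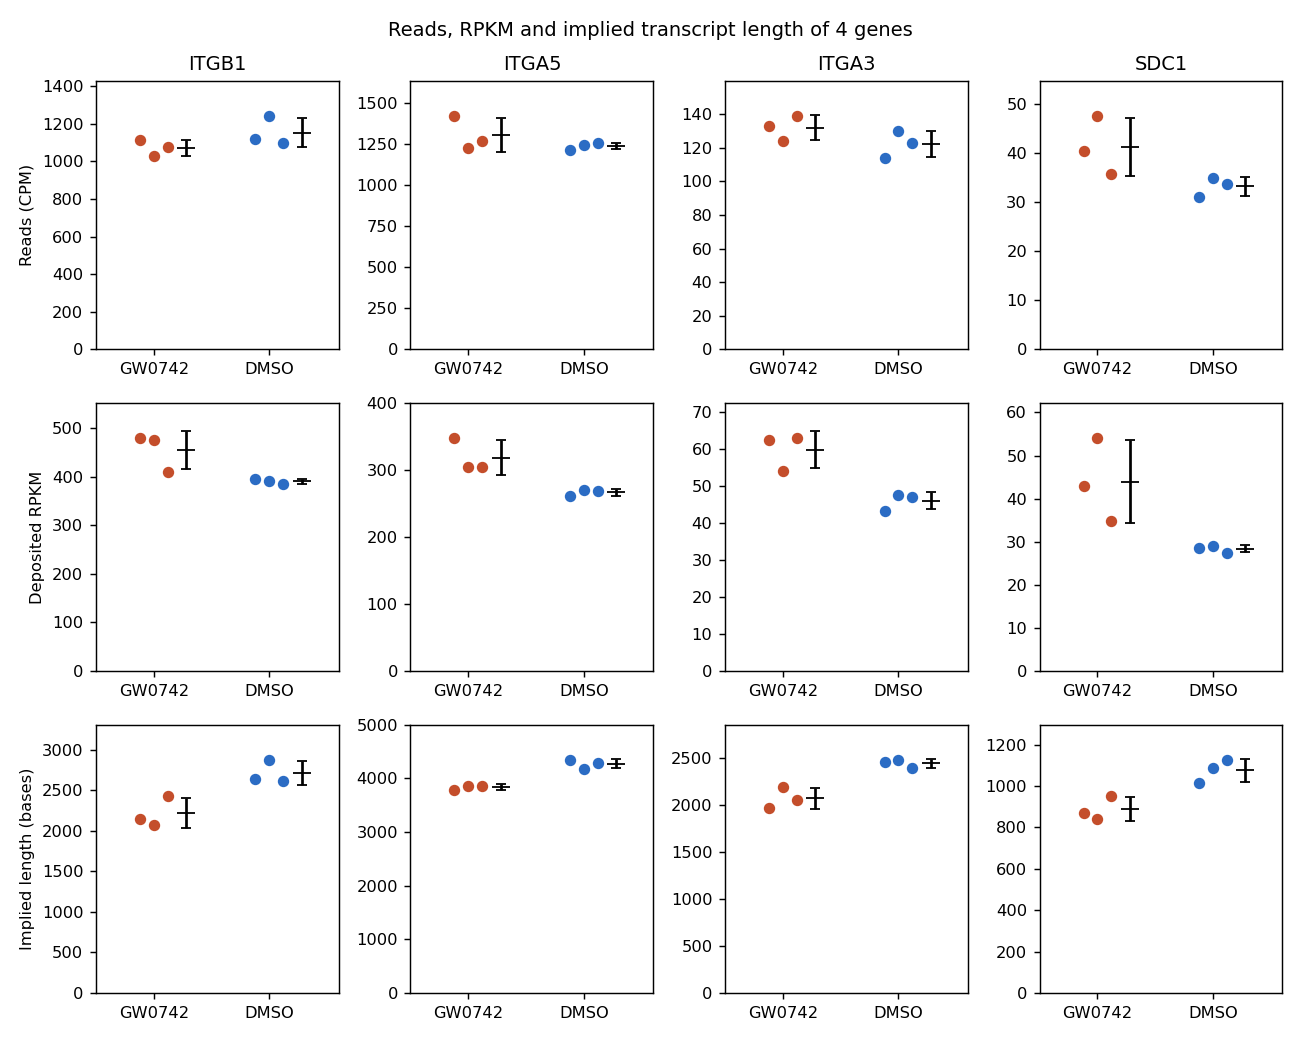
Reads as CPM (top row), deposited RPKM (middle row) and implied transcript length in bases (bottom row) of ITGB1, ITGA5, ITGA3 and SDC1, with GW0742 libraries left and DMSO libraries right, and the mean and SD as bars. Implied length is shorter in all GW0742 libraries of the 4 genes, and RPKM is higher in all of them, while reads overlap for ITGB1, ITGA5 and ITGA3.

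Among other proteins of the adhesion plaque, 35 of 54 listed genes were tested and none passed in edgeR. Their median log2 fold change was -0.05, and 22 of 35 were below 0 (49.7% of all models were above 0). The groups did not overlap in 10 with GW0742 lower, beside 12.1% of all models, and in 1 with GW0742 higher, beside 11.4%. LPP, a zyxin relative of adhesions, stood at 12.6, 18.5 and 17.4 CPM with GW0742, against 23.6, 32.3 and 25.2 CPM with DMSO (log2 -0.74 ± 0.17, edgeR adjusted p = 0.102). SORBS3, vinexin, which binds vinculin, stood at 176, 187 and 165 CPM with GW0742, against 225, 211 and 221 CPM with DMSO (log2 -0.32 ± 0.07, edgeR adjusted p = 0.0839). PARVB, the sister of PARVA, stood at 35.5, 42.4 and 34.4 CPM with GW0742, against 29.0, 27.1 and 25.7 CPM with DMSO (log2 0.46 ± 0.10, edgeR adjusted p = 0.0978). DESeq2 called 4 of the 35 lower, beside 1.43% of all models, and 1 higher, beside 1.26%. Of 7 listed smooth muscle and pericyte markers 6 were found, none at 0, and they summed to 4107 to 5107 RPKM with GW0742 and 5205 to 5581 RPKM with DMSO. That sum is carried by TAGLN and ACTA2, contractile proteins of smooth muscle. None of the 6 passed in edgeR, with GW0742 lower and groups apart in 3 (ACTA2, CNN1 and DES), beside 12.1% of all models. RGS5, a pericyte marker, was apart with GW0742 higher (11.4% of all models were). It stood at 4.36, 3.93 and 3.01 CPM with GW0742, against 0.831, 1.73 and 1.08 CPM with DMSO (edgeR adjusted p = 0.0692). MYH11, another of the 6, averaged 1.72 RPKM with GW0742 and 1.58 RPKM with DMSO. Which cells carried these markers, and the part of any smooth muscle cells or pericytes in the plaque values, was not tested.

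The list of other integrin ligands holds 45 symbols, among them old names of CCN1, CCN2 and CCN3. Of its genes 33 were tested, 1 rose (0.184% of all models did) and none fell in edgeR. DESeq2 called 2 of the 33 higher, beside 1.26% of all models, and 1 lower, beside 1.43%. VCAM1, the ligand of the ITGA4 receptor on leukocytes, stood at 10.4, 11.4 and 9.08 CPM with GW0742, against 4.57, 5.26 and 5.22 CPM with DMSO. VCAM1 rose, with log2 1.04 ± 0.15 (SE, edgeR adjusted p = 0.0419, DESeq2 adjusted p = 0.000595). Its edgeR call was lost without GW0742 replicate 1 (adjusted p = 0.163) or 2 (0.0732), without DMSO replicate 1 (0.195), 2 (0.0697) or 3 (0.136), and with the replicate block (0.142), while the log2 value stayed between 0.96 and 1.12 in these fits and in the fit without GW0742 replicate 3 (adjusted p = 0.0397). The groups were apart with GW0742 higher in 11 of 33, beside 11.4% of all models, and with GW0742 lower in 5, beside 12.1%, and the median log2 fold change was 0.06. Endothelium, whose markers had higher summed RPKM with GW0742 as given above, also makes VCAM1 and several listed laminins, and its part in the ligand values was not tested. POSTN, periostin, an ITGAV ligand, stood at 4.75, 3.87 and 3.20 CPM with GW0742, against 1.96, 2.48 and 2.16 CPM with DMSO (log2 0.84 ± 0.22, edgeR adjusted p = 0.129). THBS2, the sister of THBS1, stood at 209, 174 and 186 CPM with GW0742, against 253, 243 and 246 CPM with DMSO (log2 -0.38 ± 0.07, edgeR adjusted p = 0.0764, DESeq2 adjusted p = 0.000462). TGFB3, which with its propeptide is a ligand of ITGAV receptors, stood at 827, 699 and 733 CPM with GW0742, against 904, 865 and 869 CPM with DMSO (log2 -0.22 ± 0.07, edgeR adjusted p = 0.181).

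All 12 tested membrane proteins that associate with integrins missed the threshold in edgeR, with a median log2 fold change of -0.04. CAV1, the coat protein of caveolae, stood at 245, 202 and 238 CPM with GW0742, against 311, 308 and 294 CPM with DMSO. All treated libraries were lower (log2 -0.42 ± 0.08, edgeR adjusted p = 0.0756), and DESeq2 called it (adjusted p = 0.000149). CD9, a tetraspanin of integrin webs, stood at 17.5, 13.3 and 13.4 CPM with GW0742, against 7.95, 11.5 and 10.7 CPM with DMSO (log2 0.55 ± 0.17, edgeR adjusted p = 0.169). CD44, a hyaluronan receptor, had a log2 fold change of 0.19 ± 0.07 (edgeR adjusted p = 0.238), also with groups apart.

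**Figure D5:**
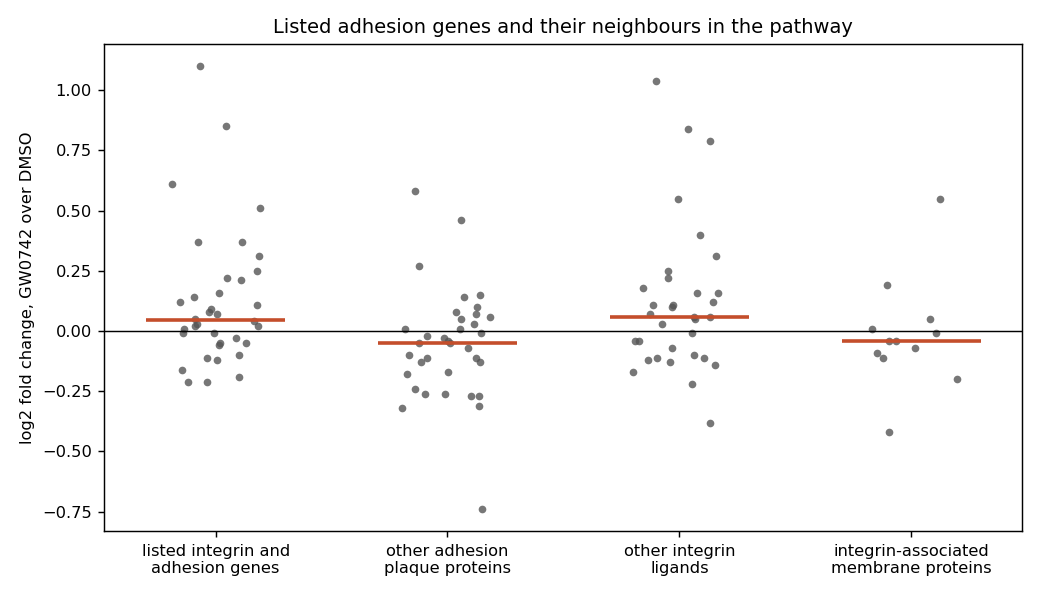
Log2 fold change of GW0742 over DMSO for each tested model (points) of the listed integrin and adhesion genes and of 3 neighbouring gene lists, with the list median as a line. All 4 medians lie between -0.05 and 0.06, LPP is the lowest point at -0.74, and VCAM1 stands at 1.04 among the ligands.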

How the data were processed

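Ion Proton reads of 6 libraries were summarised by the authors as estimated counts and RPKM values, per the file headers. The values of each library name a transcript, its length and its gene, and were summed by gene here. The series values are RPKM per gene model. The genome build was Sscrofa 10.2 per the submitters' processing notes. Aligner, counter and annotation release: not given in the sources used here. The deposited estimated counts are not whole in 99.7% to 99.8% of values by library and were rounded after the sum by gene. Once library RPKM values were summed by gene, those of both table types agreed.

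Models were named with a gene name table (11147), and list genes also through the protein accessions of the RefSeq table of assembly Sscrofa 11.1 (1157 further models). No coordinates and no sequences are printed. Models were filtered with filterByExpr (minimum count 10), scaled by TMM and tested without a block in edgeR 4.0.16 (R 4.3.3), two-sided, Benjamini-Hochberg over all 14146 models. SE is the log2 fold change divided by the root of F, and intervals are 95%. CPM uses TMM-scaled library sizes. Precision covers counting error and the spread of 3 libraries, and 3 reads were taken as the floor.

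Members and lists were chosen with earlier results of these data known. Named were all members, list genes past the threshold, and up to 2 in each direction with the largest change, groups apart and at least 1 CPM. Other named genes (ANGPTL4, PPARD, the cell type markers and those in the closing section) serve as checks. Alternatives were DESeq2 1.42.0 and its size factors, no filter, the replicate number as a block, limma 3.58.1 on log2(RPKM + 1) and log2(RPKM + 0.1), models of 1 protein summed, an adjusted p under 0.01 and leaving out each library. Implied length, and these alternatives for named list genes, were added after seeing the data. Tests were checked on simulated data, with changes larger than most of those seen in the adhesion models. That check does not show whether smaller changes would be called. The labels do not say that replicate numbers pair libraries, so numbers were not taken as pairs. Deviations from the group mean had correlations of -0.10 to 0.01 over the 3 same-numbered pairs. Between libraries of different numbers they were -0.04 to 0.07. With 3 libraries in each group these values cannot decide whether the numbers are pairs.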

Additional observations from a re-analysis of the deposited data

How the results depend on the processing

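No integrin or adhesion model passed under any alternative except DESeq2, which called 2 higher and 1 lower; the cause was not tested. Over all models 26 were higher and 11 lower. DESeq2 gave 198 and 224, no filter 13 and 3, summed models 47 and 21, an adjusted p under 0.01 gave 6 and 0 (in edgeR 1260 were lower at an unadjusted p under 0.05), limma on log2(RPKM + 0.1) gave 17 and 4, and limma on log2(RPKM + 1) 3 lower. A replicate block in the edgeR design left 10 higher and 0 lower (1102 lower if p is not adjusted), changed no call of an adhesion model and ended those of ACAN (adjusted p = 0.099) and VCAM1 (0.142). The VCAM1 call was also lost with no filter (0.084) and limma on RPKM (0.135 and 0.142), and that of ACAN with limma on RPKM (0.0648 and 0.069). Leaving out 1 library gave 6 (without DMSO replicate 1) to 54 (without GW0742 replicate 3) higher and 0 to 47 lower, and 0 adhesion models. In deposited RPKM the groups were apart in 10 adhesion models with GW0742 higher, against 5 in CPM, and in 1 with GW0742 lower, against 3. Log2 fold changes kept their sign in all but 28 of 468 refits. The turns that exceeded 1 SE were ITGB1 in RPKM (0.21 with either pseudocount), where implied length differed, ITGA1 in RPKM (-0.10 and -0.11), LIMS2 without GW0742 replicate 3 (-0.13, up to 0.15 without GW0742 replicate 1) and VTN with summed models (-0.13), which adds its second model. Depth limits ITGB6, VTN, ITGA9 and ITGA2, with 8, 67, 152 and 256 reads over all libraries.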

Other observations

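Integrin subunits of leukocytes and platelets gave an uneven picture. ITGAL, the alpha chain of a leukocyte integrin, stood at 25.5, 26.6 and 29.9 CPM with GW0742, against 30.9, 27.0 and 30.2 CPM with DMSO. Its known partner ITGB2 stood at 0.383, 0.873 and 1.31 CPM with GW0742, against 0.475, 0.751 and 0.300 CPM with DMSO. PTPRC, the pan-leukocyte marker CD45, stood at 0.153, 0.187 and 0.196 CPM with GW0742, against 0.237, 0.225 and 0.120 CPM with DMSO. None of the 3 tested genes of that list passed in edgeR. LAPTM5, a lysosomal protein of blood cells, stood at 3.91, 5.36 and 1.63 CPM with GW0742, against 0.119, 1.13 and 0.240 CPM with DMSO (log2 2.95 ± 0.68, edgeR adjusted p = 0.106, DESeq2 adjusted p = 0.00275). Of 9 listed leukocyte markers 8 were found, none at 0, and they summed to 22.1 to 25.7 RPKM with GW0742 and 15.3 to 18.3 RPKM with DMSO. All 5 tested had log2 values above 0 (49.7% of all models did), none passed in edgeR, and 2 had groups apart with GW0742 higher (11.4% of all models did). CD14, a monocyte receptor and the most abundant of them per length, stood at 26.1, 23.0 and 22.7 CPM with GW0742, against 19.5, 23.9 and 23.6 CPM with DMSO. CD68, a macrophage protein, stood at 0.766, 1.25 and 2.55 CPM with GW0742, against 1.13, 1.28 and 0.900 CPM with DMSO. The genes named here were chosen after their values were seen.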
